A study of Mus musculus with 9 samples.

Results

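Resident tissue macrophage genes are described here as a set of 9 genes, Mrc1, Cd163, Lyve1, Folr2, Timd4, Clec10a, Mgl2, F13a1 and Adgre1. They were chosen by gene name from the 56748 genes of the deposited count table, and all 9 passed the filter that left 18510 genes for testing. RNA-seq was performed on whole epididymal adipose tissue of wild-type (WT) male C57BL/6J mice. All mice started at 8 weeks of age and received a high-fat diet (HFD) for 8 weeks. Pre denotes the tissue before weight loss (labelled preWC, 0 weeks of standard diet, SD), and WL1 and WL2 denote the tissue after 1 and 2 weeks of SD (labelled WC1w and WC2w). Each phase held 3 libraries. None of these libraries came from mice kept on HFD while the others lost weight, so the diet change and the passing of time cannot be told apart.

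Resident macrophages live in the connective tissue of adipose tissue, often along blood vessels, where they take up debris, lipoproteins and dying cells. They carry scavenger receptors and sugar-binding lectins on their surface, and interleukin-4 and interleukin-13 promote part of this program. In obesity, other macrophages gather around dying adipocytes, take up lipid and express a lysosomal and lipid-handling program. In whole tissue, fewer cells of a type and less RNA per cell cannot be told apart.

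A pair of members needs its sequences shown before its values, because sequencing reads from one can also match the other. Clec10a and Mgl2 are paralogs on chromosome 11 that encode galactose-type C-type lectins. In GENCODE M21 (GRCm38), the coding sequence of the transcript Clec10a-209 has 924 bases and that of Mgl2-205 has 1143 bases, and 90.4% of 910 aligned bases were identical. The longest stretch that the 2 coding sequences share without a mismatch has 183 bases. It lies in exons 6 to 8 of the 10 exons of Clec10a-209 (chr11:70169822-70170189, plus strand) and in exons 7 to 9 of the 9 exons of Mgl2-205 (chr11:70136337-70136699, plus strand). It is printed below in capitals, with 10 flanking bases on each side in lower case.
Clec10a: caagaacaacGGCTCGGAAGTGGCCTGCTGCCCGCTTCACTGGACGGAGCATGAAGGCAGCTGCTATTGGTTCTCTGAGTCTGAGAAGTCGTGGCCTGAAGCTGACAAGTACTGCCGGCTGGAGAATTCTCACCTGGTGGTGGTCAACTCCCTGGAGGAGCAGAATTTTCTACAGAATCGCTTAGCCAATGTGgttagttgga
Mgl2: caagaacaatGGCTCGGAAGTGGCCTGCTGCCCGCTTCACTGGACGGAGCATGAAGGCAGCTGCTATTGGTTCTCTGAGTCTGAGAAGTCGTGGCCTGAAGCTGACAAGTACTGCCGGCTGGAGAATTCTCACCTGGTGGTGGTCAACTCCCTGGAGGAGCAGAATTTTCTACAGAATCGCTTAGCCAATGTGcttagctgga
Of all distinct 100-base windows of the Mgl2 transcripts, 3.95% also occurred in a Clec10a transcript, and of the windows of the Clec10a transcripts 2.64% occurred in an Mgl2 transcript. The sources used here do not say how reads from the shared windows were counted, so the counts of both genes carry this uncertainty.

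Promoter windows, 250 bases before to 50 bases after a transcription start, were given by RefSeq (GRCm38.p6) for 6 of the 9 members. Lyve1, Clec10a and Adgre1 were without one. The windows were searched on both strands for GAGGAAG, the core bound by the macrophage lineage factor PU.1, and for the letters of other factors. GAGGAAG or its reverse complement occurred in 3 of 8 member windows, which belong to 2 of 6 members (Mrc1 and F13a1), and in 13.6% of all 32851 windows. The AP-1 letters TGANTCA occurred in 1 member window (Folr2) and in 7.81% of all windows. No member window held the STAT6 motif (TTC and GAA with 4 bases of any kind between them), the C/EBP letters TTGCNNAA or the E-box CACGTG, which were in 6.95%, 10.8% and 7.15% of all windows. These matches describe letters and were not tested as binding sites. The window of Mrc1 is printed for its repeated match to GAGGAAG, in capitals, and that of Mgl2, the member with the clearest change in the counts, for comparison. It held none of these letters.
Mrc1, chr2:14229164-14229463, plus strand: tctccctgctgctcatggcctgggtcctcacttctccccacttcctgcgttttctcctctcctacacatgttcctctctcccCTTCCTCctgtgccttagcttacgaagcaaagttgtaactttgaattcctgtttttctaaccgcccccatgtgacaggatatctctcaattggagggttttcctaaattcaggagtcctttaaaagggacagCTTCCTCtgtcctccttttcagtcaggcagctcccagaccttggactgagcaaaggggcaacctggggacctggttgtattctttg
Mgl2, chr11:70130107-70130406, plus strand: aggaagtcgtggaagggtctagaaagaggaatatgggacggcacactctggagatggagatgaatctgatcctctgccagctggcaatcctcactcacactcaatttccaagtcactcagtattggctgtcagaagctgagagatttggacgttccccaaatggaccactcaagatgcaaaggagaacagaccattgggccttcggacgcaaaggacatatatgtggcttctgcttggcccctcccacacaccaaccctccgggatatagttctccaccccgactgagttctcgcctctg
In the Mrc1 window the matches began 168 and 36 bases before the start.

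Library totals ranged from 16434450 to 22729072 counts. Adipose tissue was recognisable in every library, with summed CPM (counts scaled to library size) of 10 adipocyte genes of at least 20892. Pre replicate 2 stood apart in lymphocyte genes. The summed CPM of 5 T cell genes was 23.5 in it and 1.57 to 4.41 in the other 8 libraries, and the count of Cd79a, a B cell receptor component, was 1217 in it against 17 to 93 elsewhere. WL2 replicate 1 stood apart in lipid-associated macrophage genes, whose 14 genes summed to 10154 CPM in it and to 4174 and 4001 CPM in the other WL2 libraries. Values without one of these libraries, or without another single library, are given for many, not all, of the calls and directions they change. A value without such a note is not thereby stable in sign. For the lists of other genes these fits were chosen after seeing the data. The share of all genes called in these fits is not given, so member counts from them cannot be read against it.

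All 9 members were detected in all 9 libraries, with counts between 19 and 8040. Levels of different genes were compared as the deposited FPKM, fragments scaled by gene length and library size. By mean FPKM over the 9 libraries the order was Adgre1 (52.6), Clec10a (28.6), Mrc1 (19.6), Mgl2 (19.0), F13a1 (16.9), Lyve1 (16.2), Folr2 (10.4), Cd163 (10.2) and Timd4 (1.50). Adgre1 exceeded Clec10a, Clec10a exceeded Mrc1 and Cd163 exceeded Timd4 in 9 of 9 libraries. The other neighbours in this order changed places, since Mrc1 exceeded Mgl2 in 5 libraries, Mgl2 exceeded F13a1 in 6, F13a1 exceeded Lyve1 in 6, Lyve1 exceeded Folr2 in 7 and Folr2 exceeded Cd163 in 5. Only Timd4 had FPKM ranges that did not overlap with those of its neighbour in the order.

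The libraries in which the members peaked differed between genes. WL1 replicate 3 held the highest CPM, after scaling by edgeR's TMM factors, of Adgre1, Clec10a and Mrc1. WL2 replicate 3 held the highest CPM of F13a1, Lyve1 and Cd163. Pre replicate 2 was highest for Folr2 and Timd4, and Pre replicate 3 for Mgl2. At the other end, Pre replicate 1 was lowest for Adgre1, Clec10a, Mrc1 and Folr2, WL1 replicate 2 for F13a1, Lyve1 and Cd163, and WL1 replicate 3 for Mgl2 and Timd4. The ratio of the highest to the lowest library was 8.51 for Timd4, 6.71 for Adgre1, 3.90 for Lyve1 and 2.50 to 2.88 for the other 6 members.

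**Figure D1:**
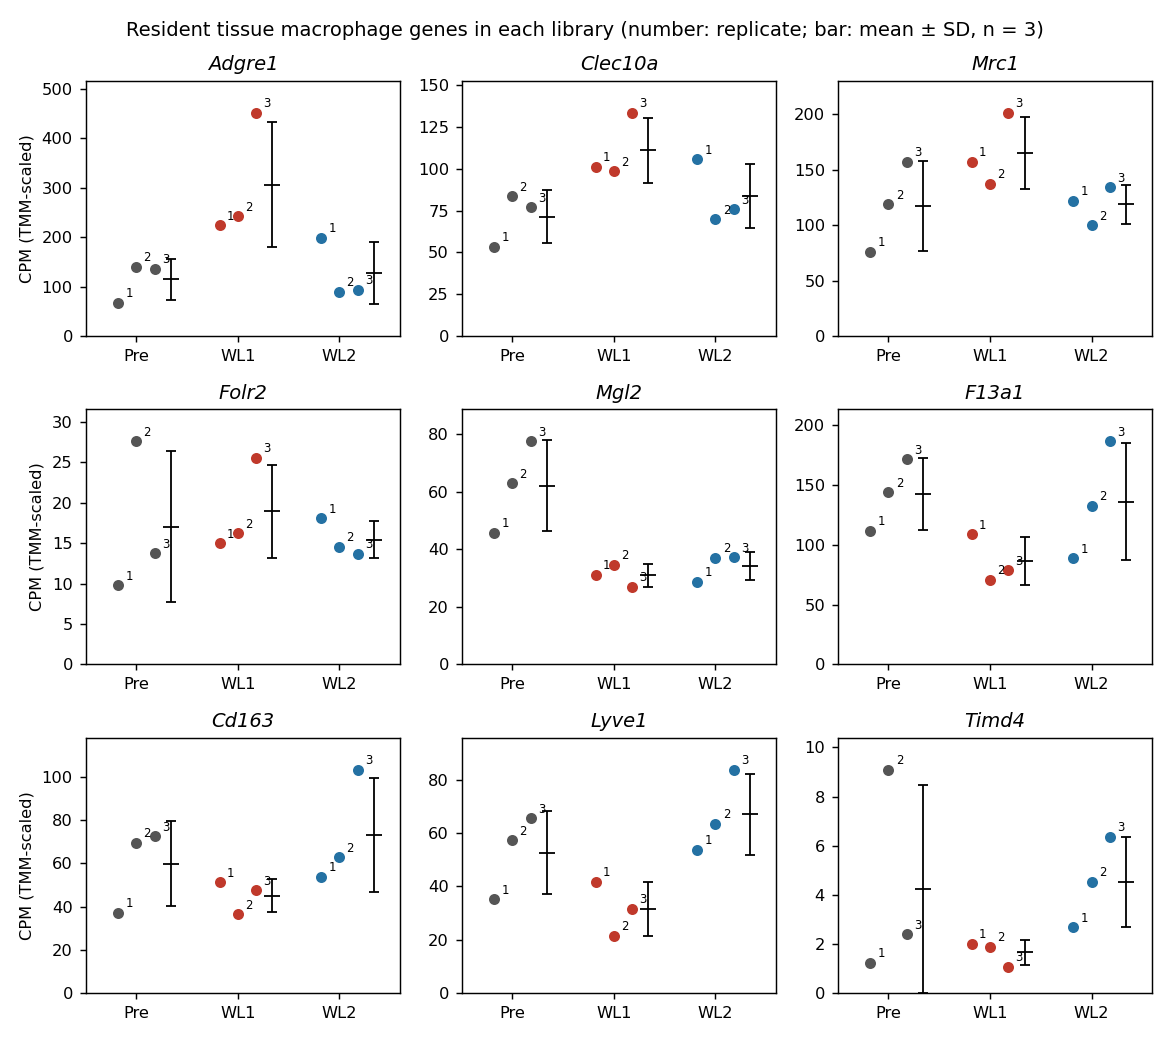
Each panel plots the TMM-scaled CPM of a member in each library (points, numbered by replicate) by phase, with the mean ± SD (n = 3) beside the points on axes that start at 0. Mgl2 was lower in all 6 weight loss libraries (26.9 to 37.2 CPM) than in the Pre libraries (45.7 to 77.4 CPM), while Adgre1 was highest in WL1 (225 to 452 CPM).

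At WL1 against Pre, 1 of the 9 members passed the threshold (edgeR quasi-likelihood test, Benjamini-Hochberg adjusted p under 0.05 over all genes tested), and it was lower. Of all genes tested, 7.29% passed in this comparison, 2.6% as higher and 4.69% as lower. The member was Mgl2. At an unadjusted p under 0.05 there were 5 members, where 24.3% of all genes tested reached it. The median log2 fold change was -0.41 over the members (-0.15 without Pre replicate 2) and 0.021 over all genes tested. The members pointed both ways, with 4 above and 5 below 0. The libraries of both phases did not overlap for 2 members higher at WL1 (Adgre1 and Clec10a) and 2 lower (Mgl2 and F13a1), where 28.7% of all genes tested did not overlap. The count was 0 without WL1 replicate 3 and 2 without WL2 replicate 1, when Adgre1 joined Mgl2. Without WL2 replicate 1, 13 of 14 lipid-associated macrophage genes also passed as higher, against 6 with all 9 libraries.

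At WL2 against Pre, 1 of the 9 members passed, again Mgl2 as lower, where 10% of all genes tested passed (6.66% as lower). It was also the 1 member at an unadjusted p under 0.05, where 26% of all genes reached it. The median over the members was 0.094 and over all genes 0.0084, and that over the members was -0.22 without Pre replicate 1 and 0.36 without Pre replicate 2. For the other 8 members the log2 fold change lay between -0.14 and 0.35. Mgl2 was the only member whose libraries did not overlap in this comparison, where 30.9% of all genes tested did not. The count was 0 without Pre replicate 3 and without each WL2 replicate in turn.

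At WL2 against WL1, 0 of the 9 members passed (edgeR), where 3.68% of all genes tested passed. At an unadjusted p under 0.05 there were 5 members, where 21.4% of all genes reached it, and DESeq2 called 1 member, Lyve1. The libraries did not overlap for 3 members higher at WL2 (Cd163, Lyve1 and Timd4) and 2 lower (Mrc1 and Adgre1), against 30.3% of all genes tested. The count was 1 without Pre replicate 1 (Lyve1) and 3 without WL2 replicate 1 (Lyve1, F13a1 and Adgre1). Without WL2 replicate 1, 14 of 14 lipid-associated macrophage genes also passed as lower, against 1 with all 9 libraries. The share of all genes called in these fits is not given, so these counts cannot be read against it. The 3 comparisons share libraries and are not independent of each other. In the test for any difference among the 3 phases, 2 members passed, Mgl2 (edgeR, Benjamini-Hochberg adjusted p = 0.0116) and Adgre1 (adjusted p = 0.0473), where 13% of all genes tested passed. Adgre1 did not pass it without any one of Pre replicates 2 and 3, WL1 replicates 2 and 3, and WL2 replicates 2 and 3, which left 1 member in each.

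Adgre1 encodes the adhesion receptor known as the F4/80 antigen, the most used surface marker of mouse macrophages, which eosinophils also carry. Its CPM was 67.4, 141 and 136 in the Pre replicates 1 to 3, 225, 243 and 452 in WL1, and 199, 89.8 and 93.4 in WL2. All WL1 libraries lay above all Pre and all WL2 libraries, and within WL2 replicate 1 lay above the other two. At WL1 against Pre its log2 fold change was 1.42 (95% interval 0.55 to 2.28, a 2.67-fold difference) and did not pass (edgeR, adjusted p = 0.0559, range over the alternatives 0.00164 to 0.182). At WL2 against WL1 it was -1.27 (95% interval -2.13 to -0.40, edgeR, adjusted p = 0.0950). Each of these 2 differences passed in only 1 of the 9 fits that leave out 1 library, the fit without WL2 replicate 1. In that fit they were 1.42 (edgeR, adjusted p = 0.0268) and -1.74 (edgeR, adjusted p = 0.0242). At WL2 against Pre the log2 fold change of Adgre1 with all 9 libraries was 0.15 (95% interval -0.70 to 1.00), an interval that does not show equal levels.

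Mrc1 encodes the mannose receptor CD206, an endocytic receptor for glycoproteins with mannose ends. Its CPM was 76.2, 119 and 157 in Pre, 157, 137 and 201 in WL1, and 122, 99.9 and 135 in WL2. Pre and WL1 overlapped, as Pre replicate 3 reached the level of WL1 replicate 1, whereas each WL2 library lay below each WL1 library. The log2 fold change was 0.49 (95% interval -0.04 to 1.02) at WL1 against Pre, 0.014 (-0.52 to 0.55) at WL2 against Pre and -0.48 (-1.01 to 0.06) at WL2 against WL1. None of these passed (edgeR, adjusted p = 0.241, 0.978 and 0.290). The microRNA gene Mir511 lies inside Mrc1 on the same strand and had a count of 0 in all libraries.

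Clec10a encodes a lectin for galactose and N-acetylgalactosamine, named MGL1 or CD301a in mice. Its CPM was 53.3, 83.6 and 77.0 in Pre, 101, 98.5 and 134 in WL1, and 106, 70.0 and 75.8 in WL2. As for Adgre1, WL2 replicate 1 was near the WL1 libraries while replicates 2 and 3 were within the Pre range. At WL1 against Pre its log2 fold change was 0.64 (95% interval 0.18 to 1.10, 1.56-fold) and did not pass (edgeR, adjusted p = 0.0920, range over the alternatives 0.0229 to 0.254). It was 0.23 (-0.22 to 0.69) at WL2 against Pre and -0.41 (-0.86 to 0.05) at WL2 against WL1 (edgeR, adjusted p = 0.507 and 0.294).

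Mgl2 encodes the paralogous lectin CD301b, which prefers N-acetylgalactosamine and marks dermal dendritic cells as well as macrophages. Its CPM was 45.7, 62.9 and 77.4 in Pre, 31.1, 34.6 and 26.9 in WL1, and 28.7, 37.0 and 37.2 in WL2. Every weight loss library lay below every Pre library, and WL1 and WL2 overlapped. Mgl2 fell by 1.01 on the log2 scale at WL1 against Pre (95% interval -1.43 to -0.58, edgeR, adjusted p = 0.0136), a level 50.2% lower after 1 week. It fell by 0.86 at WL2 against Pre (95% interval -1.28 to -0.43, edgeR, adjusted p = 0.0193), and differed by 0.15 (-0.27 to 0.57, adjusted p = 0.719) between WL2 and WL1.
The first call held in 18 of 19 alternatives and was lost without WL1 replicate 3 (adjusted p = 0.0588). The second held in 15 of 19 and was lost without Pre replicate 3 and without each WL2 replicate (edgeR, adjusted p between 0.0504 and 0.0616). Cd209a, the dendritic cell lectin DC-SIGN, also fell at both times, by 1.03 (adjusted p = 0.00833) and 0.62 (adjusted p = 0.0479, edgeR). The second of these calls was lost in 8 of 9 fits that leave out 1 library, all but the one without Pre replicate 1. Cd209a was the only one of 8 dendritic cell genes to pass, and the list did not move together. Against Pre, 2 of the 8 were higher and 6 lower at both times. Without Pre replicate 2, 5 were higher and 3 lower at WL1. Whether the fall of Cd209a and that of Mgl2 share a source was not tested.
The share of counts from mitochondrial genes separated the same libraries, at 3.15% to 3.57% in Pre, 1.86% to 2.03% in WL1 and 2.28% to 2.88% in WL2. Its part in the Mgl2 values was not tested.

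Within the same libraries the 2 paralogs thus moved apart. The ratio of Mgl2 to Clec10a in FPKM was 1.19, 1.04 and 1.39 in Pre, 0.425, 0.487 and 0.279 in WL1, and 0.375, 0.732 and 0.680 in WL2. By FPKM, Mgl2 was the more abundant of the pair in all 3 Pre libraries and the less abundant in all 6 weight loss libraries. The ratio of raw counts was 0.857, 0.752 and 1.005 in Pre and at most 0.529 in the weight loss libraries. Which paralog was ahead in Pre thus depended on the scaling by gene length, while the lower ratio after weight loss did not. The part of reads shared by the paralogs in this ratio was not tested. These ratios were chosen after the values were seen and are given without a test.

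**Figure D2:**
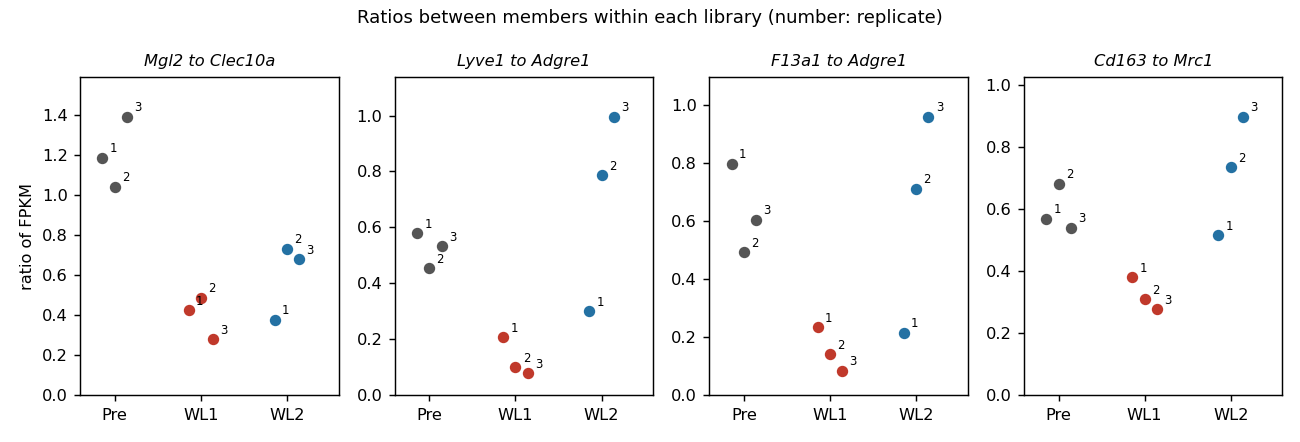
The ratio of FPKM between pairs of members is plotted for each library (points, numbered by replicate) by phase, on axes that start at 0. The Mgl2 to Clec10a ratio was 1.04 to 1.39 in Pre and at most 0.732 in the weight loss libraries, and the ratios of Lyve1 and F13a1 to Adgre1 and of Cd163 to Mrc1 were lowest in the WL1 libraries, apart from F13a1 to Adgre1 in WL2 replicate 1.

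Cd163 encodes the scavenger receptor for haptoglobin-haemoglobin complexes. Its CPM was 37.1, 69.5 and 72.7 in Pre, 51.2, 36.3 and 47.5 in WL1, and 53.7, 62.8 and 103 in WL2. Each WL2 library lay above each WL1 library, while Pre spanned both because replicate 1 was low. The log2 fold change was -0.41 (95% interval -1.05 to 0.23) at WL1 against Pre, 0.29 (-0.34 to 0.93) at WL2 against Pre and 0.70 (0.06 to 1.34) at WL2 against WL1. None passed (edgeR, adjusted p = 0.413, 0.553 and 0.190).

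Lyve1 encodes a hyaluronan receptor that marks macrophages along vessels, and lymphatic endothelium carries it too. Its CPM was 35.2, 57.4 and 65.5 in Pre, 41.8, 21.5 and 31.6 in WL1, and 53.8, 63.6 and 83.8 in WL2. All WL2 libraries lay above all WL1 libraries, by 2.12-fold in the fitted means. The log2 fold change at WL2 against WL1 was 1.09 (95% interval 0.47 to 1.71) and did not pass (edgeR, adjusted p = 0.0594, range over the alternatives 0.00252 to 0.203, past the threshold in 5 of 19). At WL1 against Pre it was -0.74 (-1.36 to -0.12, adjusted p = 0.137) and at WL2 against Pre 0.35 (-0.26 to 0.96, edgeR, adjusted p = 0.454).
Lymphatic endothelium genes moved with Lyve1 in part. The summed CPM of 6 of them was 85.0 to 158 in Pre, 48.5 to 108 in WL1 and 102 to 106 in WL2, and WL1 replicate 2 was the lowest library for both this sum and Lyve1. The highest library differed, however, being Pre replicate 1 for the sum and WL2 replicate 3 for Lyve1. No lymphatic gene passed in any comparison (0 of 6, edgeR, 0 also at an unadjusted p under 0.05), and Prox1, the defining transcription factor, had 161 counts over all libraries. The part of lymphatic vessels in the Lyve1 values was not tested.

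F13a1 encodes the catalytic A subunit of coagulation factor XIII, a transglutaminase that macrophages, monocytes and platelets hold. Its CPM was 112, 144 and 172 in Pre, 109, 71.0 and 78.7 in WL1, and 89.0, 133 and 187 in WL2. Each WL1 library lay below each Pre library, with the closest libraries at 109 and 112 CPM. The log2 fold change was -0.73 (95% interval -1.31 to -0.14) at WL1 against Pre, -0.068 (-0.65 to 0.51) at WL2 against Pre and 0.66 (0.07 to 1.25) at WL2 against WL1. None passed (edgeR, adjusted p = 0.127, 0.894 and 0.182). Platelet genes were low, and Gp1bb was at 0 in all libraries. The summed CPM of 5 platelet genes was 4.54 to 5.53 in Pre, 3.74 to 5.23 in WL1 and 5.44 to 7.81 in WL2. The part of platelets in the F13a1 values was not tested.

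Timd4 encodes TIM-4, a receptor for phosphatidylserine on dying cells that long-lived resident macrophages keep. Its CPM was 1.24, 9.09 and 2.40 in Pre, 2.01, 1.88 and 1.07 in WL1, and 2.68, 4.53 and 6.37 in WL2, from counts of 19 to 165. Each WL2 library lay above each WL1 library, and Pre replicate 2 lay far above the other Pre libraries. The log2 fold change was -1.35 (95% interval -2.77 to 0.07) at WL1 against Pre and 1.44 (0.02 to 2.87) at WL2 against WL1, and neither passed (edgeR, adjusted p = 0.227 and 0.228). Without Pre replicate 2, the first became -0.15 and WL2 against Pre moved from 0.094 to 1.30. Timd4 is also present on some peritoneal macrophages, and in Pre replicate 2 it was high together with the lymphocyte genes named above. The part of other tissue in that library was not tested.

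Folr2 encodes folate receptor beta, a marker of vessel-associated resident macrophages. Its CPM was 9.78, 27.6 and 13.8 in Pre, 15.03, 16.2 and 25.6 in WL1, and 18.1, 14.6 and 13.7 in WL2. The phases overlapped in every comparison, with the highest value in Pre replicate 2. The log2 fold change was 0.15 (95% interval -0.60 to 0.90) at WL1 against Pre, -0.14 (-0.90 to 0.61) at WL2 against Pre and -0.29 (-1.05 to 0.46) at WL2 against WL1 (edgeR, adjusted p = 0.823, 0.824 and 0.689). Without Pre replicate 2 the first was 0.68 and the second 0.39. The noncoding gene Gm10602 overlaps Folr2 on the other strand and had 430 counts in all, against 2876 for Folr2, and the sources used here name no strand setting of the counting.

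The members differed in how they varied over the libraries. From the centred log2 CPM over the 9 libraries, the closest pairs by root mean square difference were Mrc1 with Clec10a (0.218), Cd163 with Lyve1 (0.246), Cd163 with F13a1 (0.255) and Lyve1 with F13a1 (0.286). The most distant pair was Timd4 with Adgre1 (1.48). These distances are over 9 libraries of shared phases and describe likeness only.

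**Figure D3:**
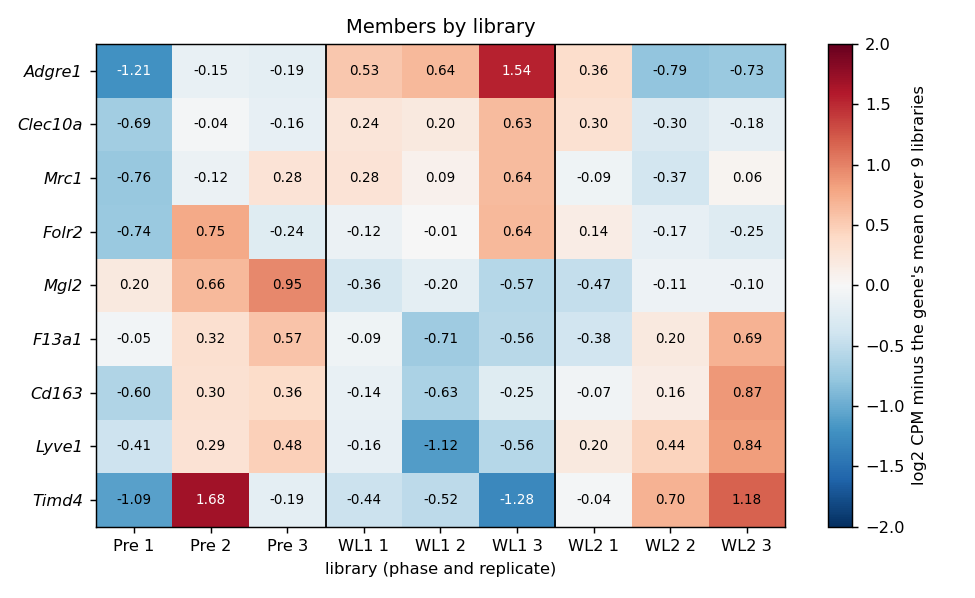
Each cell gives the log2 CPM of a member (rows) in a library (columns, by phase and replicate) minus the mean of that member over the 9 libraries, with red above and blue below the mean. Adgre1, Clec10a and Mrc1 were above their means in all WL1 libraries, and Mgl2, F13a1, Cd163, Lyve1 and Timd4 were below their means there.

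Genes of macrophages in general gave a second measure against which the members could be read. The geometric mean of 20 of them, none a member, was 63.3, 113 and 101 CPM in Pre, 122, 133 and 202 in WL1, and 119, 69.5 and 71.1 in WL2. Their median log2 fold change was 0.75 at WL1 against Pre, with 17 of 20 above 0 and 0 past the threshold (edgeR, 10 at an unadjusted p under 0.05). Without WL2 replicate 1, 7 passed as higher at WL1 against Pre and 10 as lower at WL2 against WL1. Without any other single library, none passed in either of these comparisons. The share of all genes called in these fits is not given, so these counts cannot be read against it. With this mean as the scale of each library in place of TMM, the median over all genes tested shifted to -0.71 at WL1 against Pre, 0.097 at WL2 against Pre and 0.82 at WL2 against WL1, and a member's value is to be read against that shift.

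On this scale, 4 of 9 members passed as lower at WL1 against Pre, where 10% of all genes tested did. These calls test a difference from 0 and not from the all-gene shift of -0.71. Lyve1 fell by 1.38 (95% interval -2.18 to -0.57, adjusted p = 0.0252), Timd4 by 1.81 (adjusted p = 0.0300), Mgl2 by 1.66 (adjusted p = 0.00574) and F13a1 by 1.39 (adjusted p = 0.0269) on the log2 scale (edgeR). The intervals of Lyve1 and F13a1 (-2.21 to -0.56) included the all-gene shift. That of Timd4 (-2.90 to -0.71) ended close to it, and that of Mgl2 (-2.45 to -0.86) lay below it. Per unit of macrophage genes, Lyve1 was 0.508 to 0.652 in Pre, 0.157 to 0.343 in WL1 and 0.454 to 1.18 in WL2. Clec10a (-0.071, 95% interval -0.79 to 0.65) and Mrc1 (-0.20, -0.94 to 0.54) did not pass and lay above the all-gene shift, and so did Adgre1 (0.69, -0.03 to 1.42, adjusted p = 0.161). Folr2 (-0.52, -1.28 to 0.23) did not pass and lay above it too. Cd163 (-1.05, -1.85 to -0.25, edgeR, adjusted p = 0.0697) did not pass and lay below it. The count was 2 without WL1 replicate 2 (Timd4 and Mgl2) and 1 without WL1 replicate 3 (Mgl2). Timd4 without Pre replicate 2 was -0.88 and did not pass (edgeR, adjusted p = 0.173).

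At WL2 against WL1 on this scale, 4 of 9 members passed as higher, where 7.84% of all genes tested did. These calls too test a difference from 0 and not from the all-gene shift of 0.82. Lyve1 rose by 1.95 (95% interval 1.13 to 2.76, adjusted p = 0.00310), Timd4 by 2.30 (adjusted p = 0.00963), Cd163 by 1.60 (adjusted p = 0.0133) and F13a1 by 1.54 (adjusted p = 0.0198, edgeR). The intervals of Cd163 (0.79 to 2.40) and F13a1 (0.71 to 2.36) included the all-gene shift, and those of Lyve1 and Timd4 (1.19 to 3.41) lay above it. The count of members past the threshold was 2 without WL1 replicate 2 or WL1 replicate 3 (Lyve1 and Timd4) and 1 without WL2 replicate 3 (Lyve1). Lyve1 passed in all 11 alternatives of this scale. At WL2 against Pre, 0 members passed (edgeR), where 1.75% of all genes tested passed, and 0 reached an unadjusted p under 0.05, where 9.91% of all genes did. The count was 0 in all 11 alternatives, and the Mgl2 value was -0.66 (95% interval -1.44 to 0.12, adjusted p = 0.651). The scale is a quantity of its own in each library and is shared by all genes, so these calls are not independent of each other.

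**Figure D4:**
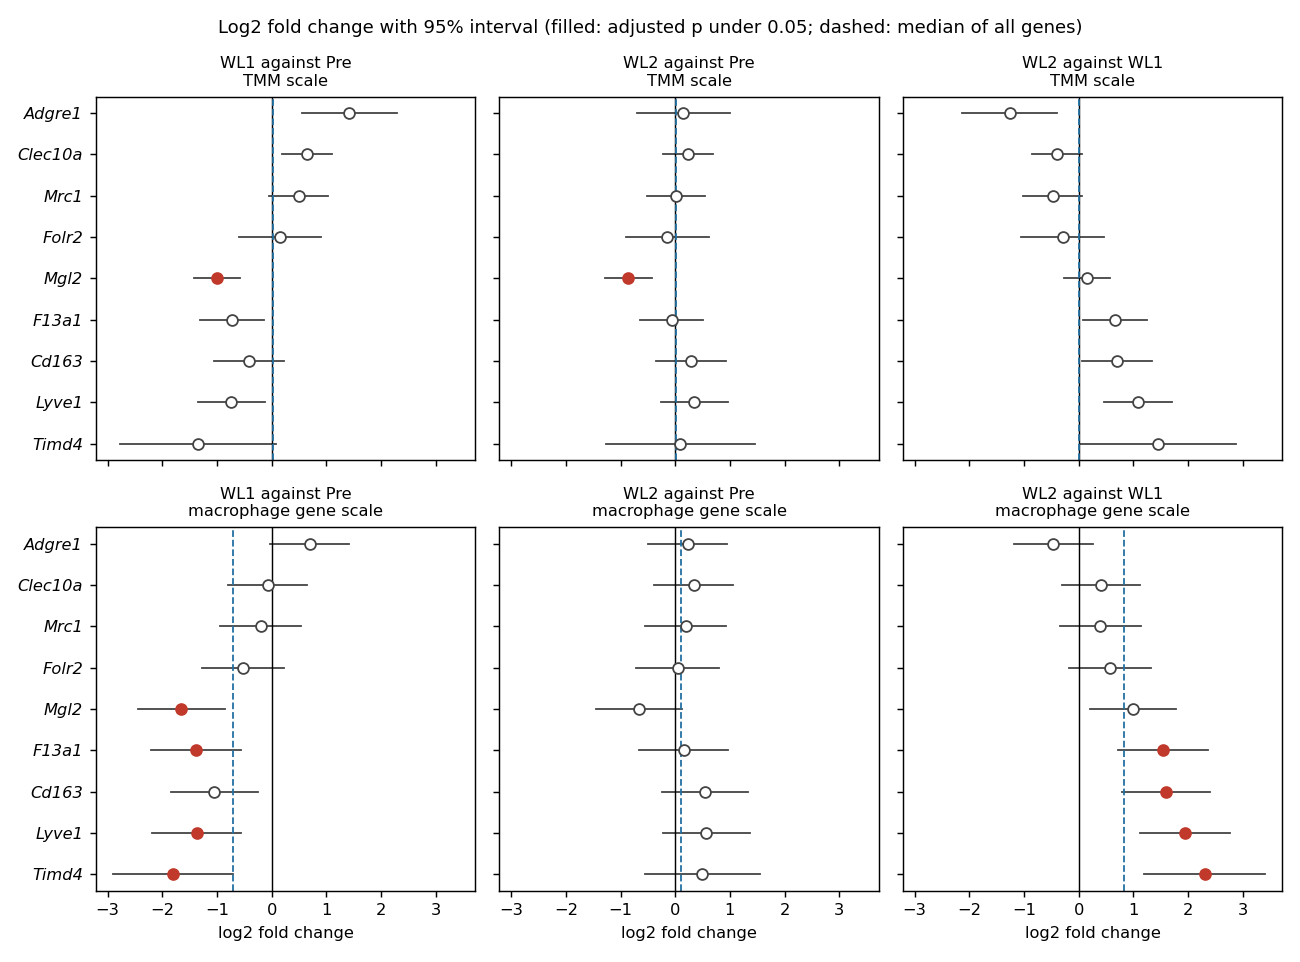
Points give the log2 fold change of each member with its 95% interval, for 3 comparisons (columns) on the TMM scale (upper row) and on the scale of 20 macrophage genes (lower row), filled where the adjusted p was under 0.05, with the median of all genes tested as a dashed line. Mgl2 was the only member past the threshold on the TMM scale, and Mgl2, F13a1, Lyve1 and Timd4 were past it at WL1 against Pre on the macrophage scale.

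Ratios within a library restate these values without a scaling between libraries. The pairs were chosen after the values were seen and get no test. The FPKM ratio of Lyve1 to Adgre1 was 0.579, 0.453 and 0.533 in Pre, 0.206, 0.0981 and 0.0777 in WL1, and 0.300, 0.786 and 0.995 in WL2. That of Cd163 to Mrc1 was 0.568, 0.680 and 0.539 in Pre, 0.379, 0.309 and 0.275 in WL1, and 0.514, 0.734 and 0.896 in WL2. In both ratios all WL1 libraries lay below all others, and WL2 replicate 1 was the lowest WL2 library. That of F13a1 to Adgre1 was 0.798, 0.493 and 0.605 in Pre, 0.233, 0.140 and 0.0836 in WL1, and 0.215, 0.711 and 0.960 in WL2. Here WL1 and WL2 overlapped, since WL2 replicate 1 lay below WL1 replicate 1.

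Other genes reported high in resident macrophages were examined beside the members. Of 20 such genes, 1 passed as higher and 4 as lower at WL1 against Pre (median -0.51), 1 as higher and 2 as lower at WL2 against Pre (median 0.071) and 0 at WL2 against WL1 (median 0.33, edgeR, 9 at an unadjusted p under 0.05). The chemokine gene Ccl8 fell by 2.11 at WL1 (adjusted p = 0.000730) and fell by 1.72 at WL2 (adjusted p = 0.000902). Cd209d, a DC-SIGN family lectin, fell by 1.16 (adjusted p = 0.0313) and Cbr2, a carbonyl reductase, by 1.10 (adjusted p = 0.0229) at WL1. The growth factor gene Igf1, which other cells of the tissue also express, fell by 0.46 and 0.68 (adjusted p = 0.0449 and 0.00593). Slco2b1, an organic anion transporter, rose by 0.99 at WL1 and 0.78 at WL2 (edgeR, adjusted p = 0.00146 and 0.00294). Vsig4, a complement receptor (-1.21, adjusted p = 0.431), and Cd5l, a secreted scavenger protein (-1.20, adjusted p = 0.461), did not pass at WL1 (edgeR). Pre replicate 2 was their highest library, and without it their direction turned, to 1.21 and 1.32.
The median of the 20 genes at WL1 against Pre also turned without that library, to 0.045. Their median at WL2 against Pre turned to -0.065 without Pre replicate 1 and to -0.029 without WL2 replicate 3. The calls of Ccl8 and Slco2b1 at both times and that of Igf1 at WL2 held in all 9 fits that leave out 1 library. At WL1, the call of Cbr2 was lost without any one of the WL1 replicates, that of Cd209d without any one Pre replicate, WL1 replicate 2 or WL1 replicate 3, and that of Igf1 in all but 2 of the 9 fits (Pre replicate 2 or WL2 replicate 1 left out).

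The fitted values of all 14 lipid-associated macrophage genes were higher at WL1 than at Pre and than at WL2. Of the 14, 6 passed as higher at WL1 against Pre (median 1.45), 0 at WL2 against Pre (median 0.18, edgeR, 1 at an unadjusted p under 0.05) and 1 as lower at WL2 against WL1 (median -1.13). The 6 were Atp6v0d2, a subunit of the lysosomal proton pump (2.42), Gpnmb, a transmembrane glycoprotein (2.29), Mmp12, the macrophage elastase (2.29), Trem2, a lipid receptor (1.83), Lipa, lysosomal acid lipase (1.53), and Cd9, a tetraspanin (1.16), with adjusted p between 0.0221 and 0.0490 (edgeR). Fabp5, a fatty acid binding protein, fell by 1.03 at WL2 against WL1 (edgeR, adjusted p = 0.0496).
These counts rested on single libraries. At WL1 against Pre, 0 passed without any one of Pre replicate 1, Pre replicate 2 and WL1 replicate 3 (edgeR), 1 without Pre replicate 3 or WL1 replicate 2, 3 without WL1 replicate 1 and 13 without WL2 replicate 1. As lower at WL2 against WL1, 14 passed without WL2 replicate 1, 1 without Pre replicate 2 and 0 in the other 7 fits. At WL2 against Pre the median turned from 0.18 to -0.38 without WL2 replicate 1, with 2 genes past the threshold as lower.
Among the macrophage genes in general, Cx3cr1, the fractalkine receptor, fell by 1.29 at WL2 against Pre (edgeR, adjusted p = 0.0232) and was the only one of the 20 to pass with all 9 libraries. This call was lost without Pre replicate 3 and without each WL2 replicate in turn. The values at WL1 against Pre were 1.52 for Cd68, 1.38 for Mpeg1 and 1.37 for Tyrobp, none past the threshold (edgeR, adjusted p = 0.0566, 0.0598 and 0.0711). All 3 passed without WL2 replicate 1 (edgeR, adjusted p = 0.00988, 0.0161 and 0.0163) and in no other fit that leaves out 1 library.

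Lists of other cell types and of signals were counted in the same way, and their medians are given in the order WL1 against Pre, WL2 against Pre and WL2 against WL1. Of 6 classical monocyte genes (medians -0.64, -1.25 and -0.33), Ccr2, the receptor for the monocyte chemokine Ccl2, fell by 1.20 at WL2 against Pre (adjusted p = 0.00148) and by 0.85 against WL1 (edgeR, adjusted p = 0.0260). The second of these calls was lost without any one of the WL1 replicates, WL2 replicate 2 or WL2 replicate 3. The values of Plac8 and Ly6c2 at WL1 were -1.23 and -0.93 and did not pass. They turned to 0.74 and 0.49 without Pre replicate 2, when the monocyte medians against Pre became 0.12 and -0.18. Of 5 tested growth factor and chemokine genes (medians -0.17, -0.16 and 0.0083), Ccl2 fell by 1.19 and Ccl7 by 1.58 at WL2 against Pre (edgeR, adjusted p = 0.0305 and 0.0153). The call of Ccl2 was lost without Pre replicate 3, WL2 replicate 2 or WL2 replicate 3, and that of Ccl7 without WL2 replicate 2. The values of Il34, Ccl7 and Cx3cl1 at WL1 were -0.45, -0.40 and -0.17 and did not pass. The median of this list at WL1 against Pre turned to 0.077 without Pre replicate 3. Its median at WL2 against Pre turned to 0.099 without Pre replicate 2.
None of 7 tested genes of type 2 cytokines and their receptors (medians 0.068, 0.063 and 0.0033) passed in any comparison (edgeR, 0, 0 and 3 at an unadjusted p under 0.05). Il13, Il33 and Il10 had values of -1.39, -0.58 and 0.53 at WL1. Of 8 dendritic cell genes (medians -0.62, -0.53 and -0.13), Cd209a alone passed, with the values given beside Mgl2, while Itgae (-1.001) and Kmo (-0.80) at WL1 did not. Without Pre replicate 2 the dendritic medians against Pre became 0.13 and -0.029, and Kmo at WL1 -0.27. The 6 lymphatic genes had medians of -1.26, -0.38 and 0.69 (-0.44, 0.22 and 0.69 without Pre replicate 1), and at WL1 the values were -1.50 for Ccl21a, -1.40 for Reln and -1.35 for Mmrn1.
Of 5 large peritoneal macrophage genes (medians 0.012, 0.49 and 0.80), Prg4 rose by 1.27 at WL2 against Pre and by 0.93 against WL1 (edgeR, adjusted p = 0.00679 and 0.0496), and Alox15 (-0.77) and Gata6 (-0.31) at WL1 did not pass and turned to 0.53 and 0.034 without Pre replicate 2. The call of Prg4 against WL1 held without Pre replicate 2 or WL1 replicate 2 and was lost without each of the other 7 libraries. The peritoneal median at WL1 against Pre turned to -0.16 without Pre replicate 3 or WL1 replicate 2, and to -0.14 without WL1 replicate 1. Of 5 B cell genes (medians -3.01, -2.57 and 0.51), Ighm, the immunoglobulin heavy chain mu, fell by 3.01 at both times (edgeR, adjusted p = 0.00151 and 0.000793), while Ms4a1 (-3.59) and Cd79a (-3.53) at WL1 did not pass. Without Pre replicate 2, Ighm still passed (-2.56 at both times), whereas Ms4a1 and Cd79a at WL1 turned to 1.55 and 0.64 and the B cell medians against Pre to 0.77 and 1.53. None of 5 T cell genes (medians -1.17, -1.42 and -0.25) or 3 tested platelet genes (medians -0.47, 0.57 and 0.44) passed (edgeR). At an unadjusted p under 0.05 there were 2 T cell genes at WL2 against Pre and 1 platelet gene at WL2 against WL1. At WL1 the values were -1.97 for Cd8a, -1.50 for Cd4 and -1.17 for Cd3d, which turned to 0.72, 0.13 and 2.57 without Pre replicate 2, when the T cell medians against Pre became 1.08 and 0.86. Of the platelet genes they were -0.74 for Gp1ba, -0.47 for Ppbp and 0.13 for Itga2b.
Of 10 adipocyte genes (medians -0.50, -0.090 and 0.46), 4 passed as lower at WL1 against Pre, Retn (-1.86), Cidec (-0.84), Lep (-0.83) and Plin1 (-0.52), with adjusted p between 0.00197 and 0.0400 (edgeR). The call of Plin1 held only without WL2 replicate 1 among the 9 fits that leave out 1 library. At WL2 against Pre, Lep (-2.03) and Cidec (-0.67) passed as lower and Cfd (1.61) as higher, with adjusted p between 2.03e-05 and 0.0299 (edgeR). At WL2 against WL1, Cfd (1.94) and Retn (1.51) passed as higher and Lep (-1.20) as lower (edgeR, adjusted p between 0.00368 and 0.0311). The calls of Lep and Cidec held in all 9 fits. Those of Cfd were lost without WL2 replicate 2 or 3 and, against Pre, without Pre replicate 2 or 3, and against WL1 without each WL1 replicate. That of Retn against WL1 was lost without WL2 replicate 2 or 3.

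The genes whose centred log2 CPM over the 9 libraries lay nearest to each member were taken from 13047 protein-coding genes. For Adgre1 they were Ly9, C3ar1 and Itgb2, leukocyte surface receptors, at root mean square differences of 0.0854 to 0.0917, where the median gene was at 0.844. For Folr2 they were the complement gene C1qa, Cmtm7 and B3gnt8 (0.117 to 0.126), and for Clec10a the lysosomal ceramidase Asah1, Ero1b and Unc13a (0.0720 to 0.0978). For Mrc1 they were Rassf2, Agap1 and the integrin gene Itgav (0.108 to 0.137), and for Mgl2 they were Rtn4rl2, Fcrls and Aif1l (0.120 to 0.160).
For Cd163 they were Rhou, Cdon and Twsg1 (0.123 to 0.162), for Lyve1 Igfbp6, Lrrc1 and Efemp1 (0.166 to 0.182) and for F13a1 the retinaldehyde dehydrogenase Aldh1a1, Ppp4r4 and Slc16a1 (0.138 to 0.153). For Timd4 they were Egln3, Scart1 and Kcnk5 (0.297 to 0.343), where the median gene was at 0.987. The distance grows with a member's own spread, which was largest for Timd4 (SD of its centred log2 CPM 0.946). Distances are thus not directly comparable between members.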

How the data were processed

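Bulk RNA-seq of 9 epididymal adipose tissue libraries, 3 per phase, was analysed. The deposited table holds raw read counts per gene, which the authors made with a service provider, and the submitters' processing notes name CASAVA, TopHat2, HISAT and HISAT2 with GRCm38 and mm10. The deposited FPKM values are the authors' own scaling of these counts by gene length and a library total (0.995 to 1.12 times the summed counts). The table's coordinates equalled those of GENCODE M21 (GRCm38) for 1524 of 52125 shared gene IDs, so none of them is printed. A gene was kept where 1 or more libraries reached 0.5 CPM, the minimum of the study's methods. The test was that of edgeR 4.0.16 in R 4.3.3 (TMM factors, quasi-likelihood test, 1 model over 9 libraries) and Benjamini-Hochberg adjustment over all genes tested. Intervals at 95% come from the fit's standard errors. FPKM was used for levels between genes. A further fit used the geometric mean of 20 macrophage gene counts, each with 0.5 added, as the library scale. Alternatives used DESeq2 1.42.0, limma 3.58.1, other filters, factors and samples, and the script was tested on simulated data.

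All 9 members are named. Of each other list, the 3 genes with the largest absolute log2 fold change at WL1 against Pre, any gene past the threshold and any gene at 0 in all libraries are named, with the 3 nearest protein-coding genes of each member (mean of at least 1 CPM). Prox1 was added as a defining lymphatic marker. The members and lists were chosen with earlier results of these data known. The labels do not say that the libraries of a phase came from separate mice, so p-values measure the spread between libraries, which may be technical. No pair of libraries agreed within sampling noise (lowest ratio of chi-square to its degrees of freedom 9.88). Promoter windows came from RefSeq. Some genes and motifs that these rules name are not reported here.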

Additional observations from a re-analysis of the deposited data

How the results depend on the processing

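Of 810 recomputed fold changes of single members, 741 kept their direction and side of the threshold, 23 passed it newly, 24 no longer passed and 22 changed sign. The members past the threshold at WL1 against Pre numbered 1, and 4 with DESeq2 (Clec10a, Mgl2, F13a1 and Adgre1), 5 without a filter on low counts (with Lyve1) and 3 with library totals alone (Clec10a, Mgl2 and Adgre1). At WL2 against WL1 they numbered 0, and 1 with DESeq2, 2 without a filter (Lyve1 and Adgre1) and 1 with the 2 compared phases alone (Lyve1). Among the 3 phases they numbered 2, and 5 without a filter, 1 with limma on log2(FPKM + 1) and 1 with limma on log2(FPKM + 0.1). The cause of these differences was not tested. The alternatives for the test among the 3 phases were chosen after seeing the data. Over all genes, 1350 of 18510 passed at WL1 against Pre, with 2292 by DESeq2, 1861 of 29550 without a filter and 1644 with library totals alone, and 681 passed at WL2 against WL1, with 1838 by DESeq2, 1668 without a filter and 1051 with the 2 phases alone. Among the 3 phases 2414 passed, with 3369 of 29550 without a filter, 2146 by limma on log2(FPKM + 1) and 2093 on log2(FPKM + 0.1).

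Leaving out each library in turn gave 0 to 2 members at WL1 against Pre, 0 to 1 at WL2 against Pre, 0 to 3 at WL2 against WL1 and 1 to 2 among the 3 phases. On the macrophage scale it gave 1 to 5 at WL1 against Pre, 0 at WL2 against Pre and 1 to 5 at WL2 against WL1. In fits that leave 2 libraries in a phase, the spread is shared by all phases. The share of all genes called in these fits is not given, so these ranges cannot be read against it. Sign changes came with small fold changes, mostly at WL2 against Pre. At that time, the values without 1 library ranged from -0.22 to 0.28 for Mrc1, -0.036 to 0.47 for Cd163, -0.42 to 0.39 for Folr2, -0.34 to 1.30 for Timd4, -0.36 to 0.16 for F13a1 and -0.33 to 0.35 for Adgre1. Those of Folr2 at WL1 against Pre ranged from -0.13 to 0.68. On the macrophage scale they ranged from -0.16 to 0.0074 for Clec10a (WL1 against Pre), and for WL2 against Pre from -0.047 to 0.39 for Mrc1, -0.11 to 0.34 for Folr2 and -0.25 to 0.52 for F13a1. With library totals alone, Folr2 and F13a1 at WL2 against Pre were 0.0030 and 0.084. That scaling moved the median of all genes to 0.12 (WL1 against Pre) and to 0.16 (WL2 against Pre), and the share of calls that were higher from 35.7% to 60.9% and from 33.5% to 64.1%. At WL2 against WL1 that share was 35.5%, and 48.3% with upper quartile factors.

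Same-numbered libraries of different phases did not stand out as pairs. Of 9 same-numbered pairs of libraries, 4 deviated together with a correlation over 0.1 across 9944 genes (range -0.59 to 0.29, other pairs -0.49 to 0.49). With 3 libraries per phase, each centred on its phase mean, these correlations cannot show whether the libraries were paired or shared a batch. With the replicate block, 1 member passed among the 3 phases (Mgl2), and the counts of the single comparisons stayed at 1, 1 and 0. On the macrophage scale the block left 1 member at WL1 against Pre (Mgl2), 0 at WL2 against Pre and 4 at WL2 against WL1. For fits with this block no all-gene share is given, so their member counts cannot be compared with a background.

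Timd4 had the lowest counts of the members, 19 to 165.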
